A study of Mus musculus with 2 samples.

Results

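Posterior Hox cells were single cells of mouse D3 embryonic stem cell cultures that held transcripts of several genes of the rear of the embryo. A cell was a member if it had at least 1 UMI in 3 or more of the 7 genes Hoxc8, Hoxc9, Hoxc10, Hoxa9, Hoxd11, Cdx2 and Pitx1, and fewer than 5 UMIs of Pou5f1, a gene of pluripotent cells. Each UMI, a random tag added before amplification, stands for 1 captured transcript. Of 9449 cells kept in the Zbtb16 knockout library, 594 were members (6.29%, 95% interval 5.81 to 6.79), against 26 of 6354 in the control library (0.409%, 0.267 to 0.599). The knockout members are set below against the other 8855 knockout cells.

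Both libraries were made on day 6 of a cardiomyocyte differentiation of D3 cells, an established mouse embryonic stem cell line, and each group was 1 library: Zbtb16 knockout and a control of wild-type genotype. How the knockout was made, whether it was 1 clone and which part of the gene was deleted are not given in the sources used here. The study asked which subpopulation Zbtb16 regulates at a stage that its design text abbreviates as CP. With 1 library per group there was no replicate, so no difference was tested, and every interval is an exact 95% interval that covers counting error only.

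Hox genes lie in 4 chromosomal clusters and are numbered along them in paralog groups. In the embryo the low numbers are used towards the head and the high numbers towards the tail, and the genes of a cluster are switched on in roughly that order. Cdx2 and its relatives are homeodomain factors of the posterior growth zone that act on Hox genes. Pitx1 is a homeodomain factor of the hindlimb and posterior lateral plate mesoderm. Zbtb16, also called Plzf, encodes a zinc finger repressor known for its part in patterning the mouse limb and axial skeleton and for effects on Hox genes.

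Promoters of some Hox genes hold the letters TTTATG, a core sequence that Cdx factors are known to bind, and 3 stretches are shown to let a reader see it beside genes whose levels are given below. The search read both strands, as TTTATG or CATAAA, and found it in 5 of 24 Hox promoters from 22 genes (20.8%), against 3893 of 32851 promoters in all (11.85%). A promoter here is the stretch from 250 bases before to 50 bases after a gene's start in RefSeq on build GRCm38.p6, which is not the build named for the deposited files. The match is a description of these letters and shows no binding. In the lines below, chosen as examples from the Hoxd, Hoxa and Hoxb clusters, capitals mark the motif, and each stretch of 100 bases is written along its gene's own strand. Hoxd11 lies at chr2:74679424-74679523 on the plus strand, Hoxa7 at chr6:52218724-52218823 on the minus strand and Hoxb8 at chr11:96281708-96281807 on the plus strand.
Hoxd11: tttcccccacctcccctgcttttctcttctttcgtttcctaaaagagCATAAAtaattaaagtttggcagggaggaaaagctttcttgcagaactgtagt
Hoxa7: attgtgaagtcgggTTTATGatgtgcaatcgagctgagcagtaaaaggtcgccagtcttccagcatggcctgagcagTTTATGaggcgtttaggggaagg
Hoxb8: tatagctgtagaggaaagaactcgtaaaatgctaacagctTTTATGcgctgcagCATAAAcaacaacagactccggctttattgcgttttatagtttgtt

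Kept cells had at least 15000 UMIs and 500 genes, and at most 10% mitochondrial UMIs. Their median depth was 30513 UMIs in the knockout library and 37324 UMIs in the control library. Zbtb16 itself stood at 1.81 CPM in knockout members and 0.927 CPM in other knockout cells, against 22.6 CPM in control members and 22.2 CPM in other control cells. The unit CPM is the UMIs of a gene summed over a set of cells, divided by all UMIs of those cells and multiplied by 1000000. Since the deleted part is not known, the low level describes the knockout library and does not check its label fully. In all, 16 barcodes were kept in both libraries, of which 1 was a knockout member and 0 were control members. No doublets were removed, since the caller marked 2 knockout cells and 1 control cell and had therefore not worked.

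Cells with more of the 7 genes became steadily fewer in the control library. In the knockout library more cells had 7 of the genes than had 6 at the deposited depth, but fewer did at equal depth, as given below. Among cells with fewer than 5 Pou5f1 UMIs, knockout cells with 3, 4, 5, 6 and 7 of the genes numbered 263, 143, 66, 54 and 68. Control cells with 3, 4, 5, 6 and 7 of the genes numbered 12, 7, 4, 2 and 1. Cells with 6 or 7 of the genes, called core cells below, were thus 122 in the knockout library (1.29%, 1.07 to 1.54) and 3 in the control library (0.0472%, 0.00974 to 0.138). The division at 6 was chosen after these numbers were seen.

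**Figure D1:**
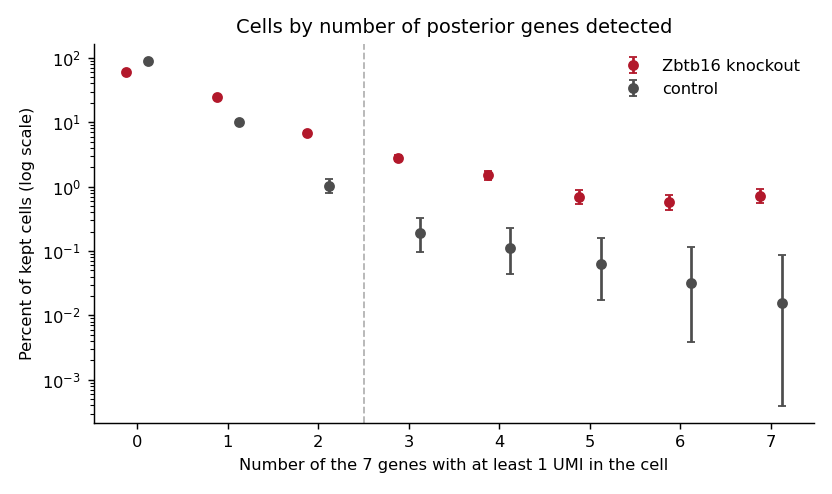
Percent of kept cells (log scale) with 0 to 7 of the 7 genes detected, among cells with fewer than 5 Pou5f1 UMIs, in the Zbtb16 knockout library (red) and the control library (grey); bars are exact 95% intervals and the dashed line marks the rule's minimum of 3. Knockout cells lie above control cells at every number from 1 to 7, and the knockout share at 7 genes (68 cells) is not below that at 6 (54 cells).

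Depth touches this rule, because a deeper cell has more chances to show a UMI. Knockout members had a median of 36808 UMIs, against 30219 in other knockout cells, and control members had 59032, against 37270 in other control cells. When every cell was thinned to 15000 UMIs, 344 knockout cells (3.64%, 3.27 to 4.04) and 7 control cells (0.110%, 0.0443 to 0.227) met the rule, and 343 of the 594 knockout members were kept. Core cells had a median of 34140 UMIs, against 37262 UMIs in members with 3 to 5 genes. After thinning, 76 knockout cells (0.804%) and 1 control cell (0.0157%) had 6 or 7 of the genes. Of those knockout cells, 42 had 6 genes and 34 had 7, the reverse of the order as deposited. As deposited, knockout cells with 7 genes had a median of 39230 UMIs, against 31437 UMIs in those with 6.

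The 7 genes chose the members, so their levels are only a description. Pitx1 had a UMI in 512 of the 594 members, Cdx2 in 478, Hoxc8 in 476 and Hoxc9 in 464. Hoxc10, Hoxa9 and Hoxd11 were rarer, with a UMI in 243, 168 and 150 members. Members at the minimum of 3 genes were mostly combinations of the 4 common genes: Hoxc8, Hoxc9 and Pitx1 in 63 of 263 cells, and Hoxc8, Cdx2 and Pitx1 in 58. Hoxc10 stood at 190.3 CPM in core cells, 13.3 CPM in members with 3 to 5 genes and 0.290 CPM in other knockout cells. Hoxd11 stood at 129.1, 3.68 and 0.164 CPM in the same order, and Hoxa9 at 120.6, 4.91 and 0.584 CPM. Just inside the limit, cells with exactly 3 genes had 57.1 CPM of Cdx2 and 89.0 CPM of Pitx1, and just outside it, cells with exactly 2 had 36.0 and 72.3 CPM. Free RNA, read from barcodes with 10 to 100 UMIs, held 2.41 CPM of Hoxc10, 11.6 CPM of Cdx2 and 15.6 CPM of Pitx1. The rule was met by 5 of 423 endothelial-like cells (1.18%, 0.385 to 2.74) at a median of 38889 UMIs, and by 1 of 210 visceral endoderm-like cells (0.476%) at a median of 45945 UMIs. Of the 5 endothelial-like ones, 2 had 6 or 7 of the genes. Single genes of the rule did occur in these classes: Cdx2 had a UMI in 131 of the 210 visceral endoderm-like cells (62.4%), at 31.7 CPM, and Hoxa9 in 70 of the 423 endothelial-like cells (16.5%), at 5.34 CPM. The rule therefore rests on genes found together, not on 1 gene.

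Hox genes outside the rule were higher in members in 3 of the 4 clusters, their high-numbered ends included. Over all genes that the rule did not use, 189 of 10080 measured genes were at least 1.5-fold higher in members than in other knockout cells (1.88%) and 233 were at least 1.5-fold lower (2.31%). A gene was measured at 5 CPM or more in either set of cells, and ratios were taken of CPM plus 1. Of the 12 genes of paralog groups 9 to 13 outside the rule, 7 were measured and all 7 were at least 1.5-fold higher, with a median log2 ratio of 2.63 against 0.02 for all genes. Only 1 of the 7, Hoxb9, reached 5 CPM in the other cells, so the remaining 6 had to differ to be counted.

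In the Hoxd cluster, on chromosome 2, Hoxd9 stood at 37.2 CPM in members (34.9 to 39.6) and 4.00 CPM in other knockout cells. Hoxd10 stood at 8.58 and 0.218 CPM, and Hoxd13, which patterns the digits and the end of the gut and urogenital tract, at 7.65 and 0.397 CPM. The same direction held at the low-numbered end of this cluster, where Hoxd4 stood at 12.9 and 1.91 CPM and Hoxd1 at 9.31 and 2.72 CPM. In the Hoxa cluster, on chromosome 6, Hoxa13 stood at 23.2 CPM in members and 2.98 CPM in other knockout cells, and Hoxa10 at 18.0 and 0.347 CPM. Hoxa2, towards the other end, was barely seen, at 1.08 and 1.01 CPM. In the Hoxc cluster, on chromosome 15, Hoxc6 stood at 20.9 CPM in members and 1.64 CPM in other knockout cells, and Hoxc4 at 6.69 and 1.38 CPM. Neighbouring Hox genes overlap or share transcripts in places, and the sources used here do not say how counting treated them. For that reason single neighbours within a cluster are less certain than the cluster as a whole.

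The Hoxb cluster, on chromosome 11, differed from the other 3. Hoxb1 stood at 9.62 CPM in members (8.46 to 10.9) and 24.2 CPM in other knockout cells, and Hoxb2 at 98.6 and 160.9 CPM. Hoxb4 and Hoxb5 were also at least 1.5-fold lower, at 28.1 and 45.5 CPM and at 27.0 and 41.7 CPM. Hoxb3, Hoxb6, Hoxb7 and Hoxb8 stayed within 1.5-fold, with log2 ratios of 0.04, -0.04, 0.30 and 0.36. Hoxb9 was the gene of this cluster on the higher side, at 26.3 and 13.1 CPM, and Hoxb13 was barely seen, at 0.115 and 0.142 CPM. Across paralog groups 1 to 4 as a whole, 4 of 9 measured genes passed 1.5-fold upwards and 3 downwards, and the 3 lower ones were Hoxb1, Hoxb2 and Hoxb4. With members limited to cells of at least 30000 UMIs, or to cells with at least 2 of the 7 genes, Hoxb2 came to log2 ratios of -0.57 and -0.45, just under 1.5-fold.

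**Figure D2:**
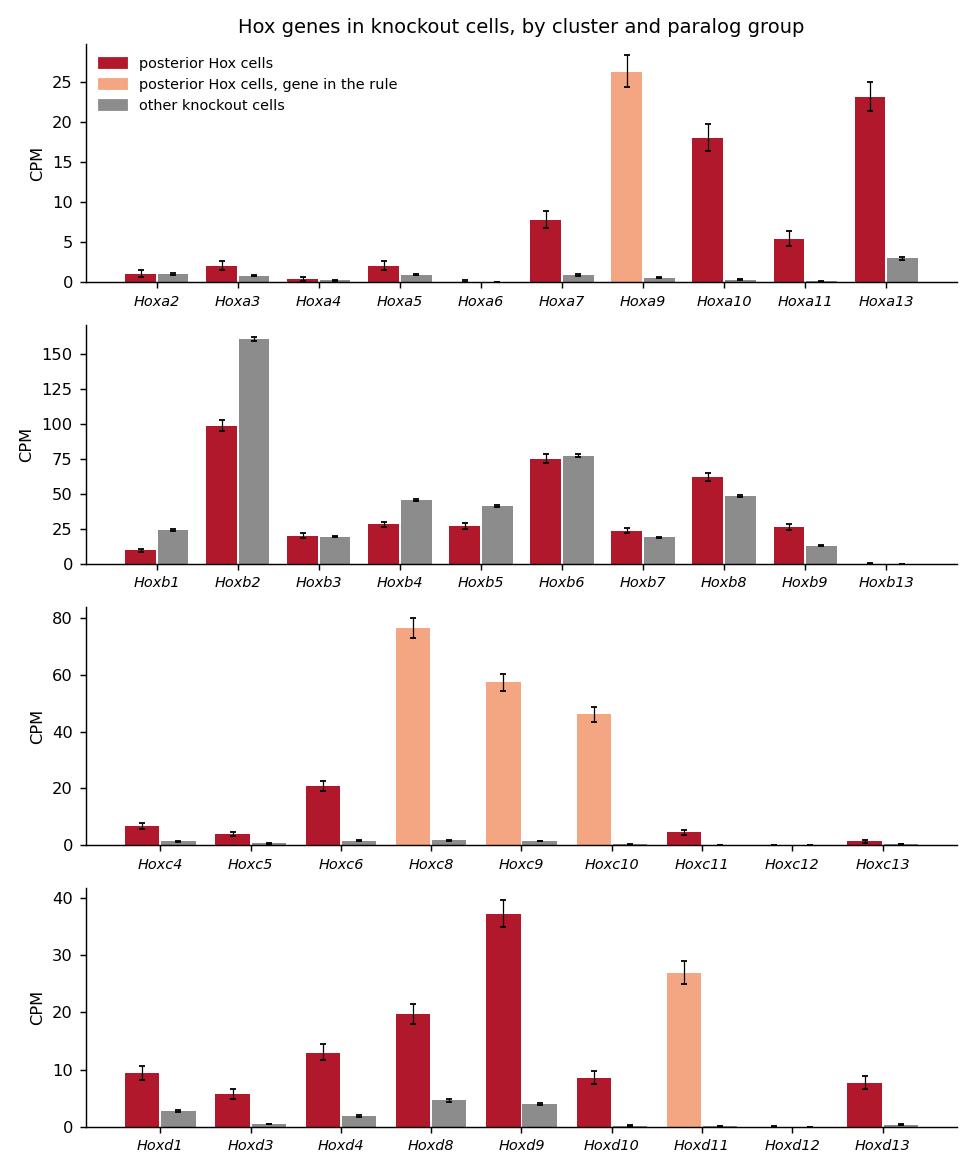
CPM of Hox genes in knockout posterior Hox cells (red, or orange for the 5 Hox genes of the rule) and in other knockout cells (grey), 1 panel per cluster with paralog groups in order; bars show exact 95% Poisson intervals of the UMI sums. The red bars exceed the grey ones at the high-numbered ends of the Hoxa, Hoxc and Hoxd clusters, while Hoxb1, Hoxb2, Hoxb4 and Hoxb5 are lower in members.

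Posterior Hox genes outside the rule were detected together within single cells. Of the 12 genes of groups 9 to 13 outside the rule, at least 3 had a UMI in 115 of 122 core cells (94.3%, 88.5 to 97.7), in 128 of 472 members with 3 to 5 genes (27.1%, 23.2 to 31.4) and in 148 of 8855 other knockout cells (1.67%, 1.41 to 1.96). The shares after thinning to 15000 UMIs were 70.5%, 11.02% and 0.373%. Cofactors of the Pbx, Meis and Pknox families, which bind DNA together with Hox proteins, did not follow: 0 of 8 measured genes passed 1.5-fold in either direction, with a median log2 ratio of 0.07.

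Within the members, levels changed with the number of the 7 genes, and where the change was steepest depended on depth. Over cells with 0, 1, 2, 3, 4, 5, 6 and 7 of the genes, Hoxa10 stood at 0.210, 0.292, 0.699, 0.779, 5.08, 10.2, 68.1 and 91.3 CPM. Lefty2, a secreted inhibitor of Nodal signalling, stood at 1.80, 1.81, 3.35, 12.4, 13.2, 28.0, 129 and 155 CPM. Greb1, a gene known from hormone response and from the posterior growth zone, stood at 18.6, 21.2, 27.4, 35.9, 61.5, 93.4, 258 and 267 CPM. Each of these 3 genes was thus low in the cells with few of the genes and high in those with 6 or 7. Hand1, a transcription factor of lateral plate and extraembryonic mesoderm, ran the other way, with 1314 CPM at 0 genes, 1307 at 3, 1044 at 5, 427 at 6 and 345 at 7. Postn, a matricellular protein, stood at 162 CPM at 0 genes, 167 at 3, 71.1 at 5 and 10.4 at 7. As deposited, Lefty2, Greb1 and Hand1 changed most between 5 and 6 genes. With the genes counted after thinning each cell to 15000 UMIs, Greb1 and Hand1 changed most between 4 and 5 genes: at 4, 5 and 6 genes Greb1 then stood at 104.6, 239.1 and 269.7 CPM and Hand1 at 996, 511 and 290.1 CPM. Lefty2 then stood at 45.2, 113.4 and 112.2 CPM, with no step between 5 and 6, and at 223.9 CPM at 7 genes. The division at 6 genes is therefore 1 of several that these levels allow.

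**Figure D3:**
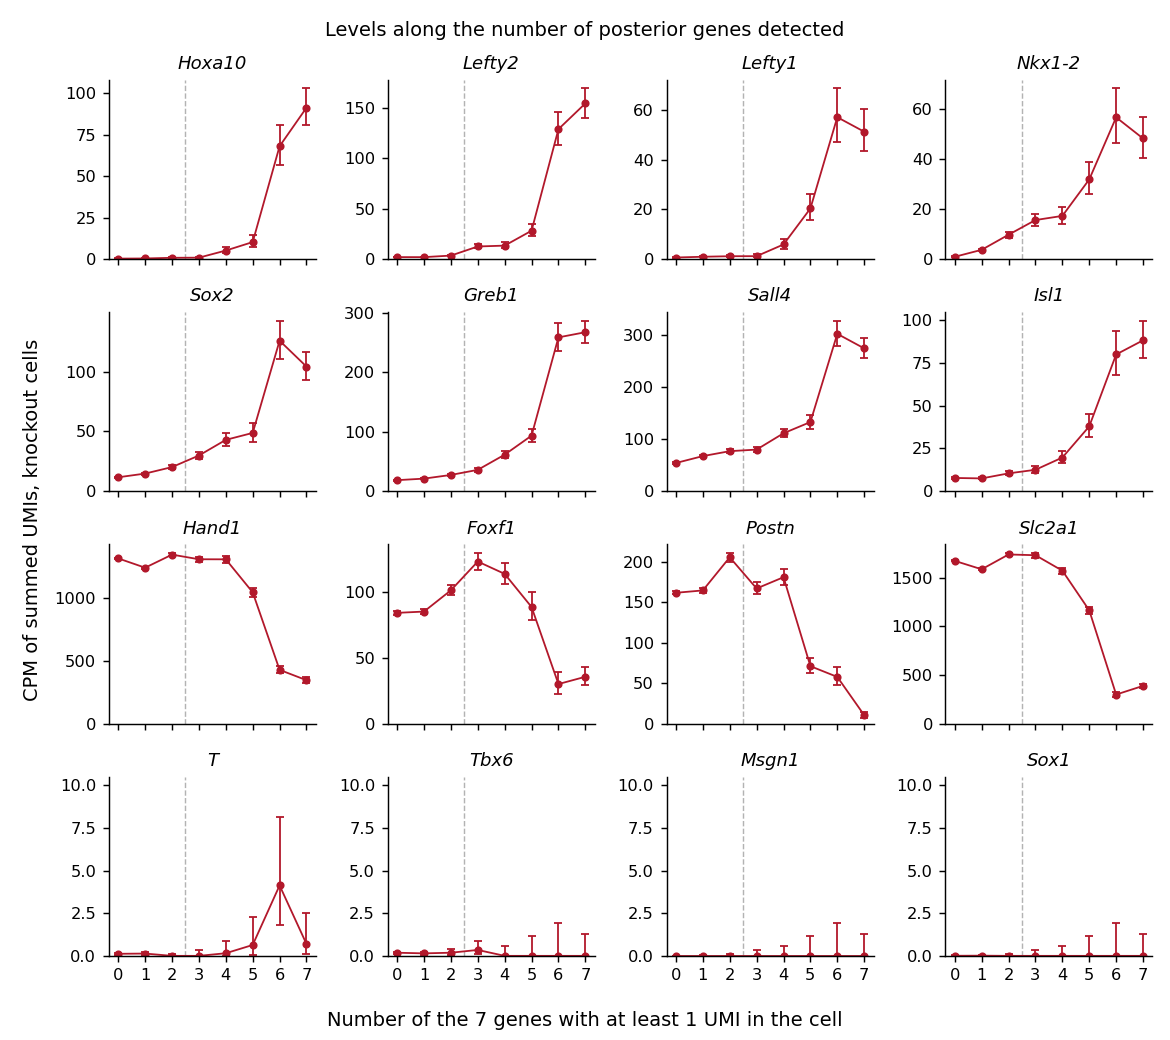
CPM of 16 genes outside the rule in knockout cells with 0 to 7 of the 7 genes detected, with exact 95% Poisson intervals; the dashed line marks the rule's minimum of 3. The upper 8 genes are highest at 6 or 7 genes (Lefty2 reaches 155 CPM), Hand1, Foxf1, Postn and Slc2a1 are lowest there, and T, Tbx6, Msgn1 and Sox1 stay near 0.

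Core cells were next set against the 472 members with 3 to 5 genes. Of 10150 measured genes, 612 were at least 1.5-fold higher in core cells (6.03%) and 756 were at least 1.5-fold lower (7.45%). Against all other knockout cells, 658 of 10242 measured genes were at least 1.5-fold higher in core cells (6.42%) and 934 were at least 1.5-fold lower (9.12%). Core cells together held 4818307 UMIs, so a gene at 5 CPM rests on few molecules, and at a minimum of 20 CPM the numbers were 292 and 420. All 8 measured Hox genes of groups 9 to 13 outside the rule were at least 1.5-fold higher, with a median log2 ratio of 3.00 against 0.03 for all genes, and 3 of them reached 5 CPM in the other members. Hoxa11 stood at 22.6 and 1.56 CPM, Hoxc11 at 21.8 and 0.614 CPM, and Hoxa7 at 29.7 and 2.83 CPM. Hoxa11 overlaps its antisense gene Hoxa11os, which stood at 33.4 and 1.56 CPM, and without the strand setting their UMIs cannot be told apart with certainty. Cdx4, which acts with Cdx2 in the posterior embryo, stood at 12.7 CPM in core cells (9.68 to 16.3) and 0.236 CPM in the other members. Cdx1 had no UMI in core cells. Evx1, a homeodomain gene of the late primitive streak, stood at 28.6 and 7.51 CPM.

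Several genes of the posterior growth zone were higher in members, while T, Wnt3a and Fgf8, which mark its streak and neuromesodermal cells, were at 1.31 CPM or less there. In members, 7 of 10 measured genes of 18 listed passed 1.5-fold above the other knockout cells and 0 passed it below, and the median log2 ratio was 1.09. Of the 10, 6 reached 5 CPM in the other cells, and all the rest, Nkx1-2 and Evx1 among them, had to be higher in members to be counted. With no filter on low values the median came to 0.23, under 1.5-fold. For core cells over the other members the median of this list was 1.38, and it came to 0.53, under 1.5-fold, within cluster 5, described below. Nkx1-2, a homeodomain gene of the caudal epiblast, stood at 24.7 CPM in members and 2.53 CPM in other knockout cells, and in core cells at 51.7 CPM. It stood at 46.5 CPM in members of cluster 5, 8.82 CPM in members elsewhere and 19.8 CPM in the cluster's other cells. Wnt5a, a ligand of axis elongation, stood at 152.8 and 69.0 CPM, and in core cells at 270.6 CPM. Fst, an inhibitor of activin, stood at 15.6 and 6.93 CPM. T, the defining factor of the primitive streak, stood at 0.50 CPM in members and 1.61 CPM in other knockout cells, and at 2.08 CPM in core cells from 10 UMIs. Of 14 primitive streak genes 4 were measured, and Nodal, Evx1 and Lefty2 were at least 1.5-fold higher in members and Tdgf1 lower, at a median of 1.47. In core cells the same 3 were measured and higher than in the other members, at a median of 1.80, which came to 0.26 within cluster 5, and with no filter the median in members was -0.081. Eomes, another streak factor, stood at 2.77 CPM in members and 3.10 CPM in other knockout cells. Wnt3a had no UMI in any member, and Fgf8 stood at 1.31 and 3.62 CPM. Cyp26a1, an enzyme that degrades retinoic acid, had 3.11 CPM in core cells and 16.1 CPM in the other members.

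Mesoderm markers, read because these cells were proposed as mesoderm-like, gave a mixed picture. Markers of presomitic and paraxial mesoderm were almost absent: Msgn1, Mesp2 and Ripply2 had no UMI in members, Tbx6 stood at 0.154 CPM, and 1 of 16 genes was measured, Foxc1, at 13.5 CPM in members and 4.86 CPM in other knockout cells. Most lateral plate genes lay within 1.5-fold of the other knockout cells: of 20 measured genes, Pitx1 left out, 4 were at least 1.5-fold higher and 1 lower, with a median log2 ratio of 0.26. Hand1 stood at 1103 CPM in members and 1258 CPM in other knockout cells, and Foxf1 at 99.6 and 83.3 CPM. Isl1, a factor of hindlimb, cardiac and cloacal progenitors, was among the higher genes, at 30.8 CPM in members (28.7 to 33.0) and 7.74 CPM in other knockout cells. Sall4, a zinc finger gene of stem cells and of the limb, stood at 132.3 and 65.8 CPM. Tbx4, the T-box gene of the hindlimb and allantois, was low at 4.96 CPM in members and 0.224 CPM in other knockout cells, and stood at 13.3 CPM in core cells. Lateral plate markers were thus present in members and the defining paraxial markers were at or near 0.

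Core cells differed from the other members in many mesenchymal and cardiac progenitor genes, while lateral plate genes went both ways. Of 21 measured genes of hindlimb and posterior lateral plate, Pitx1 left out, 7 passed 1.5-fold upwards in core cells and 6 downwards, at a median log2 ratio of 0.10. Of 18 measured mesenchymal genes, 11 passed 1.5-fold downwards in core cells and 2 upwards, and the median log2 ratio was -0.74. The median came to -0.55 when core meant at least 5 genes, and to -0.58 within cluster 5, described below. Postn stood at 29.5 CPM in core cells and 157.3 CPM in the other members, Lum, a small proteoglycan, at 18.1 and 77.0 CPM, and Snai2, a factor of mesenchymal transition, at 50.2 and 149.3 CPM. Twist1 and Prrx1, mesenchymal factors of the limb bud, were the 2 that were higher, at 277.1 and 164.8 CPM and at 50.2 and 14.2 CPM. The cardiac progenitor list, with 13 measured genes, had 10 past 1.5-fold on the lower side and 2 on the higher side, and a median of -0.88. Gata5 stood at 5.81 CPM in core cells and 24.2 CPM in the other members, Tbx20 at 25.3 and 77.1 CPM and Hand1 at 377.9 and 1268 CPM. Isl1, at 84.9 and 18.5 CPM, and Hand2, at 223.3 and 146.1 CPM, were the 2 higher ones. Of 16 measured genes of allantois and extraembryonic mesoderm, 9 passed 1.5-fold downwards and 4 upwards, at a median of -0.64. The lower ones included Foxf1, at 33.2 CPM in core cells and 114.7 CPM in the other members, and Ahnak, at 277.1 and 1051 CPM. This median was -0.43 when core meant at least 5 genes and -0.53 within cluster 5.

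**Figure D4:**
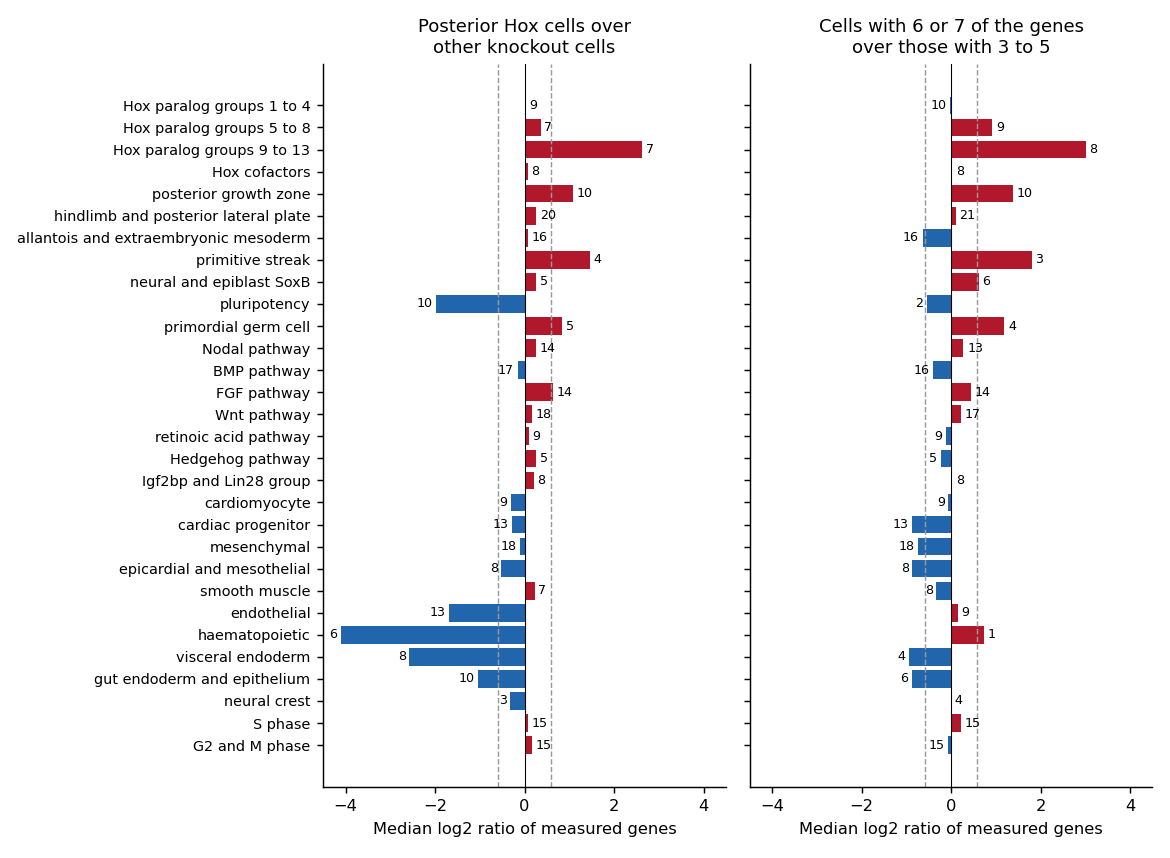
Median log2 ratio of the measured genes of each gene list outside the rule, for knockout posterior Hox cells over other knockout cells (left) and for core cells over members with 3 to 5 genes (right), for lists with at least 3 measured genes on the left; dashed lines mark 1.5-fold and the number is that of measured genes. Hox groups 9 to 13 have the highest median in both panels (2.63 and 3.00), and the haematopoietic list the lowest on the left (-4.10).

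Sox2 and Lefty2, given as markers of these cells but not part of the rule, were both higher in members. Sox2, a factor of pluripotent, neural and caudal epiblast cells, stood at 50.8 CPM in members (48.1 to 53.6) and 21.0 CPM in other knockout cells, and at 112.9 CPM in core cells. Lefty2 stood at 38.9 CPM in members (36.6 to 41.4) and 2.87 CPM in other knockout cells, and at 144.2 CPM in core cells. Free RNA held 25.3 CPM of Sox2 and 6.02 CPM of Lefty2. The markers were not in every member: Sox2 had a UMI in 83 and Lefty2 in 75 of 122 core cells, and 54 core cells had both. Of 472 members with 3 to 5 genes, 188 had a UMI of Sox2, 56 of Lefty2 and 49 of both. A single core cell held up to 74 UMIs of Lefty2, and the median core cell held 1. The neural factors Sox1 and Pax6 did not accompany Sox2 in members, since Sox1 had no UMI and Pax6 had 0.0385 CPM. Of 5 measured genes of the neural and SoxB list only Sox2 passed 1.5-fold in members as a whole, with Nes at 32.3 and 21.5 CPM. In core cells 3 of 6 measured genes of this list, Sox2 included, were at least 1.5-fold higher than in the other members and 1 was lower. The median log2 ratio there was 0.62, and it came to 0.022 within cluster 5, described below. Epcam, an adhesion molecule of epithelia, stood at 30.1 CPM in core cells and 11.3 CPM in the other members, but at 30.7 CPM in other knockout cells.

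Genes of Nodal signalling differed in both directions. The ligand Nodal stood at 15.3 CPM in members and 7.72 CPM in other knockout cells, and its inhibitors Lefty1 and Lefty2 at 14.4 and 2.26 CPM and at 38.9 and 2.87 CPM. In core cells Nodal stood at 34.2 CPM and Lefty1 at 53.8 CPM. Nodal was highest in cells of cluster 5, described below, that were not members: it stood at 32.9 CPM in members of that cluster, 2.65 CPM in members elsewhere and 60.7 CPM in the cluster's other cells. The coreceptors were lower, with Cfc1 at 5.27 CPM in members and 12.2 CPM in other knockout cells and Tdgf1, also a pluripotency gene, at 0.308 and 6.35 CPM. The receptors and Smad genes stayed within 1.5-fold, such as Acvr2b at 99.6 and 76.4 CPM. In all, 4 of 14 measured genes passed 1.5-fold upwards and 2 downwards, at a median log2 ratio of 0.25.

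Feedback genes of FGF signalling were higher in members, with few ligands. Of 14 measured genes of 20 listed, 7 passed 1.5-fold upwards and 1 downwards, and the median log2 ratio was 0.64. This median was under 1.5-fold in 6 of the other settings tried, between 0.28 and 0.52. Of the 14, 11 reached 5 CPM in the other cells, and the rest, Spry4 and Fgf15 below among them, had to be higher in members to be counted. In core cells 6 of 14 measured genes were at least 1.5-fold higher than in the other members and 5 lower, at a median of 0.44. Dusp6, a phosphatase induced by FGF through ERK, stood at 59.0 CPM in members (56.1 to 62.0) and 20.3 CPM in other knockout cells, and at 150.1 CPM in core cells. Spry1 and Spry4, inhibitors of the same pathway, stood at 33.3 and 14.6 CPM and at 7.35 and 2.20 CPM, and Etv5, a target factor, at 14.4 and 7.999 CPM. Among ligands, Fgf3 and Fgf15 were higher in members, at 15.8 and 8.01 CPM and at 11.3 and 4.48 CPM. Fgf3 was lower in core cells, at 2.08 CPM against 18.9 CPM in the other members. Fgfr3 was the 1 lower gene, at 10.3 and 17.1 CPM.

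Wnt genes showed a similar partial pattern, with 7 of 18 measured genes at least 1.5-fold higher in members and 1 lower, and a median log2 ratio of 0.17. Lef1, a nuclear effector, stood at 137.9 CPM in members and 76.6 CPM in other knockout cells, and the receptor Fzd10 at 12.3 and 4.29 CPM. Axin2, a target of canonical Wnt signalling, stood at 27.6 and 21.1 CPM, within 1.5-fold. Sfrp1, a secreted antagonist, was the lower gene, at 32.4 and 51.9 CPM. In the retinoic acid pathway 2 of 9 measured genes were higher. Crabp2, which carries retinoic acid to its receptor, stood at 79.3 CPM in members and 22.6 CPM in other knockout cells, and Aldh1a2, which makes retinoic acid, at 5.81 and 0.252 CPM. In core cells Aldh1a2 stood at 22.6 CPM. BMP genes differed little between members and other cells, with 1 of 17 higher and 1 lower. In core cells 5 of 16 were at least 1.5-fold lower, among them the ligand Bmp5, at 18.3 CPM against 53.5 CPM in the other members.

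Of 5 measured germ cell genes 3 were at least 1.5-fold higher in members and 1 lower. Ifitm1, a surface protein gene of early mesoderm and germ cells, stood at 336.4 CPM in members and 187.8 CPM in other knockout cells, the receptor gene Kit at 22.4 and 9.60 CPM, and Prdm1 at 5.54 and 1.18 CPM. Dppa3, a defining germ cell gene, stood at 0.0385 and 6.599 CPM, and Prdm14 had no UMI in members. Of 8 measured genes of the Igf2bp and Lin28 group only Hmga2, a chromatin protein of growing embryonic tissue, passed 1.5-fold, at 1206 and 665.3 CPM. Igf2bp1, Igf2bp2 and Igf2bp3 had log2 ratios of 0.07, 0.22 and 0.19. None of 30 cell cycle genes passed 1.5-fold, with medians of 0.07 for S phase and 0.17 for G2 and M phase.

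The 15 genes with the largest ratios among those at 20 CPM or more outside the rule were Lefty2, Hoxc6, Hoxd9, Nkx1-2, Hoxa13, Greb1, Isl1, Mllt3, Crabp2, Hs3st3b1, Rprm, Pmepa1, Dusp6, Bicd1 and Vldlr. Mllt3, a chromatin reader of transcription elongation, stood at 48.4 CPM in members and 12.7 CPM in other knockout cells. Rprm, a cell cycle inhibitor gene, stood at 177.6 and 61.9 CPM, and Pmepa1, a target and inhibitor of TGF-beta signalling, at 48.4 and 16.4 CPM. Some of these genes were as high in cells of cluster 5 that were not members. Vldlr stood at 40.7 CPM in members of that cluster, 5.17 CPM in members elsewhere and 58.7 CPM in the cluster's other cells, and Pmepa1 at 80.5, 25.1 and 78.4 CPM. For core cells over the other members, the largest ratios outside the Hox and Lefty genes were those of Epha5, Aldh1a2, Itgb8, Jag1, Cpm and Gask1b. Epha5, an ephrin receptor, stood at 46.7 CPM in core cells and 2.79 CPM in the other members, and Jag1, a Notch ligand, at 50.2 and 7.04 CPM. The lowest were Gas6, Stard8, Ptges, Colec11, Postn, Cbln1, Smoc2, Slc2a1, Tdo2, Ccn4, Parm1, Epas1, Cryab, Lum and Efnb1. Gas6, a ligand of the TAM receptors, stood at 26.4 and 185.5 CPM, and Slc2a1, the glucose transporter of most embryonic cells, at 351.4 and 1597 CPM.

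The genes that were lowest in members were those of other cell classes in the knockout library. The 15 largest ratios in the lower direction were those of Hba-x, Dppa5a, Hbb-bh1, Hba-a1, Hbb-y, Ttr, Dpp4, Apob, Spink1, Cdh5, Rbp4, Car2, Klf2, Flt1 and Mef2c. Hba-x, an embryonic globin, stood at 1.46 CPM in members, 83.4 CPM in other knockout cells and 83.0 CPM in free RNA, and Ttr, a carrier protein of visceral endoderm, at 3.85, 72.3 and 46.7 CPM. All 13 measured endothelial genes, 7 of 8 visceral endoderm genes, 5 of 6 haematopoietic genes and 9 of 10 pluripotency genes were at least 1.5-fold lower. The summed level of the endothelial list was 177.6 CPM in members and 394.2 CPM in other knockout cells, and that of visceral endoderm 223.8 and 661.6 CPM. The limit on Pou5f1 in the rule bears on the pluripotency list directly. In an alternative chosen after seeing the data, the 5 named classes of clusters were left out of the other cells but not out of the members. The members kept 5 endothelial-like, 1 visceral endoderm-like and 22 cardiomyocyte-like cells, so higher levels of those classes' markers are at least partly built in. Under this alternative Ttr, Apob, Cdh5 and Flt1 were higher in members, with log2 ratios of 1.00, 0.62, 0.96 and 0.37. Under it the globins lay between -0.21 and 0.00, the endothelial median was -0.11 and the medians of visceral endoderm and haematopoietic genes were 0.34 and 0.98. Mef2c, a factor of heart and vessel, stayed at least 1.5-fold lower under it, with a log2 ratio of -0.86, and stood at 13.7 CPM in members and 40.2 CPM in other knockout cells.

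Clusters of the knockout library, built without the 8 genes of the rule, gathered the core cells in 1 place. Other Hox genes were not left out of the clustering, so it may not be independent of the genes that chose the members. Cluster 5 held 791 cells, of which 291 were members (36.8%, 33.4 to 40.3), and 116 of the 122 core cells (95.1%). Its leading genes were Lefty2, Hoxc10, Hoxa9, Hoxd11, Trh, Mmp9, Cdx2, Eomes and Nodal, besides 1 gene known only by a Rik name. It was left unnamed, because only 1 of its 10 leading genes was in the cell type list that came closest. Naming did not use the Hox lists, the primitive streak list or the markers given for these cells. Lefty2, Hoxc10, Hoxa9, Hoxd11 and Cdx2 are among those given markers. Members with 3 to 5 genes were more spread out, and cluster 5 held 175 of these 472, more than any other cluster. Clusters 1, 4, 2 and 3, which have Postn or Tdo2 among their leading genes, held 101, 81, 49 and 42 members, 1 of them a core cell. The cardiomyocyte-like cluster 10 held 22 members among 197 cells (11.2%, 7.13 to 16.4), 3 of them core cells. The pluripotency-like and haematopoietic-like clusters held no member, of 215 and 32 cells, with exact 95% intervals up to 1.70% and 10.9%. Pou5f1 was a leading gene of the pluripotency-like cluster, so the rule's limit on Pou5f1 bears directly on its lack of members. In the whole knockout library that limit left out 6 cells with 3 or more of the genes, 3 of them with 6 or 7. After thinning, 1 cell of the pluripotency-like cluster met the rule.

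**Figure D5:**
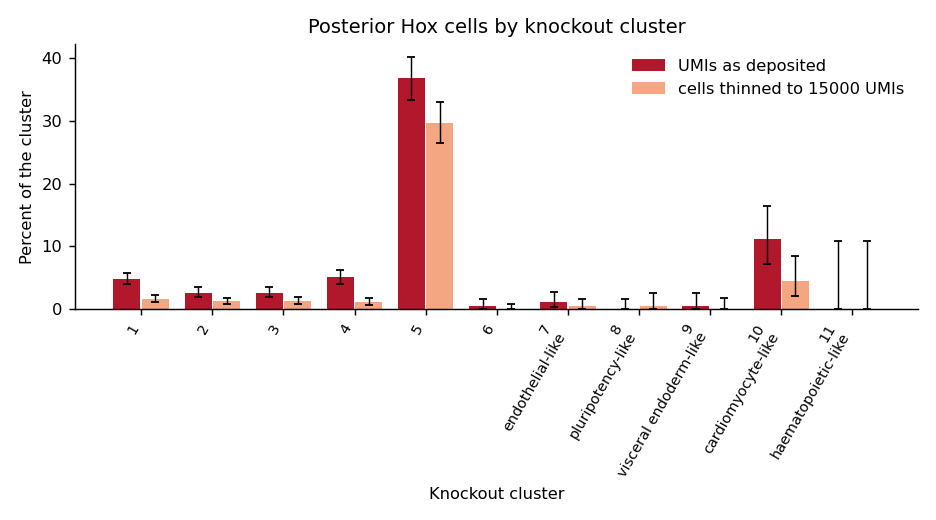
Percent of the cells of each knockout cluster that are posterior Hox cells, on the UMIs as deposited (red) and with every cell thinned to 15000 UMIs (orange), with exact 95% intervals. Cluster 5 stands above all others at either depth, at 36.8% and 29.7%.

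Members inside and outside cluster 5 differed in depth and in content. The 291 members in cluster 5 had a median of 32358 UMIs, and the 303 members elsewhere 42737 UMIs. Lefty2 stood at 87.7 CPM in members of cluster 5, 3.58 CPM in members elsewhere and 29.7 CPM in the other 500 cells of cluster 5. Sox2 stood at 99.3, 15.7 and 115.7 CPM in the same order, so that it was as high in the cells of cluster 5 that did not meet the rule. Hoxd9 stood at 74.1, 10.5 and 26.7 CPM, Isl1 at 64.0, 6.76 and 33.6 CPM and Greb1 at 171.6, 33.4 and 31.9 CPM. Postn stood at 39.9, 201.5 and 126.8 CPM. In members outside cluster 5, Sox2 and Lefty2 were therefore close to the 21.0 and 2.87 CPM of knockout cells that were not members.

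Members with only one of the rule's non-Hox genes also differed. A UMI of both Cdx2 and Pitx1 was seen in 408 members, of Cdx2 alone in 70, of Pitx1 alone in 104 and of neither in 12. Core cells made up 26.0%, 14.3%, 5.77% and 0% of these. Cdx2 and Pitx1 are themselves counted in defining core cells, so the 0% was fixed in advance. A member lacking either Cdx2 or Pitx1 had to hold every other counted gene to be a core cell. The shares below 26.0% are therefore at least partly built into the definition and do not show by themselves that these sets differ. Between members with Cdx2 alone and those with Pitx1 alone, at median depths of 37010 and 38059 UMIs, 600 of 10063 measured genes passed 1.5-fold upwards (5.96%) and 515 downwards (5.12%). With 70 and 104 cells these numbers include counting error, and they moved by more than 1.5-fold in 4 of the other settings tried. Members with Cdx2 alone had 57.3 CPM of Lefty2, against 5.41 CPM in those with Pitx1 alone, 76.2 CPM of Sox2, against 16.7 CPM, and 54.0 CPM of Mmp9, a matrix protease, against 1.51 CPM. They also had 798.4 CPM of the smooth muscle and early cardiac gene Tagln, against 105.1 CPM. Lower in members with Cdx2 alone were Gata6, a factor of endoderm and heart, at 75.6 CPM against 199.6 CPM, Postn, at 79.5 CPM against 207.8 CPM, and Nnat, an imprinted gene, at 8.62 CPM against 50.8 CPM.

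The 26 control members are too few for a comparison of levels with the knockout members, and only values are given. Hoxd9 stood at 33.8 CPM in control members and 0.942 CPM in other control cells, and Hoxc6 at 11.3 and 0.179 CPM. Lefty2 stood at 1.78 CPM in control members, from 3 UMIs, and 1.71 CPM in other control cells, and Sox2 at 3.56 and 4.34 CPM. Nkx1-2 stood at 11.3 CPM in control members, from 19 UMIs, and 0.464 CPM in other control cells, and Greb1 at 51.7 and 20.7 CPM. These 2 Hox genes, Nkx1-2 and Greb1 were thus higher in the control members too, while Lefty2 and Sox2 were at about the same level in both sets of control cells. Isl1 and Crabp2, given below, were lower in control members.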

How the data were processed

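Single cells were captured in droplets with the DNBelab C Series kit of MGI, then sequenced on the DNBSEQ platform, per the labels' protocols. Each deposited matrix gives unfiltered UMI counts of 32285 features, written by Cell Ranger 4 per the file headers. The tools named are Cell Ranger and R 4.1.1, with builds GRCm39 and mm39, per the submitters' processing notes. How a DNBelab library was read by Cell Ranger, and its strand setting, are not given in the sources used here. The libraries held 357324373 (knockout) and 308465930 (control) UMIs.

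UMIs were summed over cells, turned into CPM and compared as ratios of CPM plus a prior of 1. Genes were called by size at 1.5-fold, with exact Poisson intervals for sums and Clopper-Pearson intervals for shares, in Python 3.11.15 with SciPy 1.17.1. The arithmetic was tested on simulated data. Scrublet and clustering used scanpy 1.11.5 and leidenalg 0.10.2 (2000 variable genes without the 8 rule genes, 30 components, 15 neighbours, resolution 1). A cluster took a name from at least 3 genes of 1 cell type list among its top 10, and the Hox, primitive streak and given marker lists were not used. Alternatives were UMI, mitochondrial and Pou5f1 limits, doublet scores, the number of genes required, thinning, depth weighting, the cells compared with, equal weight per cell, prior, filter, edgeR 4.0.16 TMM scaling and resolution.

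The members and the 35 gene lists were chosen with earlier results of these data known. Named genes were the 15 largest ratios each way at 20 CPM or more, without predicted, ribosomal protein and mitochondrially encoded genes, the 8 largest each way at 50 CPM or more between the Cdx2 and Pitx1 sets, up to 4 list members by level and 2 by ratio, and all Hox and Cdx genes. Other list members named in the text, and all comparisons of cells with 6 or 7 genes, were chosen after their values were seen. Knockout and control members were not compared, since the control held fewer than 50. A few genes are not reported here.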

Additional observations from a re-analysis of the deposited data

Results flagged for a closer look

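For 3 named genes, members and other cells differed by at least 1.5-fold in opposite directions in the 2 libraries, which is what singled them out, and the difference between libraries was not tested. Isl1 stood at 30.8 CPM in knockout members and 7.74 CPM in other knockout cells, and at 25.5 CPM in control members, from 43 UMIs, and 40.4 CPM in other control cells, a difference of log2 ratios of 2.505. Crabp2 stood at 79.3 and 22.6 CPM in the knockout library and at 118.7 and 187.7 CPM in the control library, a difference of 2.42. Tdo2 stood at 60.3 and 93.5 CPM in the knockout library and at 89.1 and 47.9 CPM in the control library, a difference of -1.50. The 26 control members are few, and their median depth of 59032 UMIs exceeds the 37270 UMIs of other control cells.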

How the results depend on the processing

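No paired analysis was possible because there is a single library on each side and nothing was tested. The control holds 26 members and core cells hold few UMIs, so depth limits genes under about 20 CPM, and shares of cells depend on depth. Alternatives with at least 6 genes, outside the named classes, or within members were chosen after seeing the data. Where values moved, the cause was not tested, except that fewer cells or genes enter under stricter limits.

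The knockout share of 6.29% came to 7.99% at 30000 UMIs, 7.10% at 5% mitochondrial UMIs, 13.2% and 3.503% with at least 2 and 4 genes, 4.39% without Hoxc8, 5.67% with no Pou5f1 UMI and 3.64% after thinning. The control share of 0.409% came to 1.45% and 0.220% with at least 2 and 4 genes and 0.110% after thinning. The 189 genes higher in members became 98 and 294 with at least 2 and 4 genes, 347 after thinning, 293 with no filter, 75 at 20 CPM and 651 with at least 6 genes. The 233 lower genes became 394 after thinning, 149 with a prior of 5 CPM, 498 with no filter, 79 at 20 CPM, 151 outside the named classes and 919 with at least 6 genes. Of the gene lists, 13 had a median past 1.5-fold, against 8 with no filter and 21 with at least 6 genes. The 612 higher and 756 lower genes of core cells became 398 and 464 with at least 5 genes over 3 or 4, 350 and 491 within cluster 5, and 292 and 420 at 20 CPM. Between members with Cdx2 alone and Pitx1 alone, the 600 higher and 515 lower genes became 382 and 308 with at least 2 genes, 1427 and 1431 with at least 4, 1327 and 1313 without Hoxc8, and 1284 and 1319 after thinning. The largest share of members in 1 cluster, 49.0%, was 41.1% at resolution 0.5 and 35.4% at resolution 2.

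Some directions turned. With no filter the medians of the primitive streak and germ cell lists were -0.081 and -0.061. The alternative outside the named classes took them out of the other cells but not out of the members, so higher markers of those classes are at least partly built in. Its log2 ratios were 0.015 for Dppa5a, 1.00 for Ttr, 0.065 for Dpp4, 0.62 for Apob, 1.84 for Spink1, 0.96 for Cdh5, 0.96 for Rbp4, 0.74 for Klf2 and 0.37 for Flt1. Its haematopoietic and visceral endoderm medians were 0.98 and 0.34. In core cells after thinning the haematopoietic and gut endoderm medians were -0.55 and 0.60, and within cluster 5 the haematopoietic and visceral endoderm medians were -0.0031 and 0.015. Among the alternatives for named genes in members, 825 values kept their direction and their side of 1.5-fold, 8 went under it, 13 went past it and 9 turned. Those that went past it were all of Zbtb16, higher in members, or of Postn and Hand1, lower in members. Zbtb16, at the low levels given above, came to log2 ratios of 0.62 with depth weighting, 0.97 after thinning and 1.07 with at least 6 genes. Postn came to -0.69 after thinning. For named genes in core cells the numbers that kept both, went under, went past and turned were 212, 4, 0 and 0. Within cluster 5, Sox2 and Nkx1-2 had log2 ratios of 0.49 and 0.33 in core cells.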

Other observations

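Some further genes differed between core cells and members with 3 to 5 genes, and they are given as single values chosen after these were seen. The stress-response gene Ndrg1 stood at 14.1 CPM in core cells, against 51.0 CPM in those members. The keratin genes Krt8 and Krt18 stood at 401.6 and 214.8 CPM in core cells, against 1125 and 720.4 CPM.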
